A study of Mus musculus with 16 samples.

Results

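The 30 genes described here make cholesterol and fatty acids or control that synthesis. They were chosen by name, as members of these pathways and by no rule on measured values, though earlier results of these data were known. All 30 were found in each of the 3 expression tables, which list 38926, 21603 and 38922 genes. By step, 2 of them supply acetyl-CoA, 7 act in the mevalonate and isoprenoid steps, 3 carry farnesyl diphosphate to lanosterol, 8 carry lanosterol to cholesterol, 5 are regulators or carry sterols, and 5 make, elongate or desaturate fatty acids.

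The study sequenced RNA of endothelial cells (ECs) sorted from the long bones of 3-week-old C57BL/6 mice, in 16 libraries. In the first table, 3 libraries of metaphyseal ECs (mpECs) stand against 3 of diaphyseal bone marrow ECs (bmECs), all from Cdh5-mT/nG reporter mice, which mark cells with an active Cdh5 promoter. In the second, 3 control libraries stand against 3 labelled ECKO, at postnatal day 21, from mice with loxP-flanked Yap1 and Wwtr1 (which encodes Taz), the effectors of Hippo signalling. In the third, 2 control libraries stand against 2 labelled Lats2 cKO, from mice with loxP-flanked Lats2, a kinase that restrains Yap1 and Taz. Mutants carried Cdh5-CreERT2, which acts on tamoxifen and only in cells that use the Cdh5 promoter, and the controls were littermates without Cre. Whether a library held 1 animal or a pool is not given in the sources used here.

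Cells make cholesterol from acetyl-CoA through mevalonate, farnesyl diphosphate, squalene and lanosterol, and they make fatty acids from acetyl-CoA through malonyl-CoA. Most of the enzymes are under common control by SREBP transcription factors (encoded by Srebf1 and Srebf2), which Scap escorts from the endoplasmic reticulum to the Golgi when sterols are low and which Insig1 retains when sterols are high. Endothelial cells can also take up cholesterol from lipoproteins.

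SREBPs act with NF-Y and Sp1 at short elements near the start of many of these genes, so the stretches before the start of 6 members named in the results are shown. Each line gives the 250 bases before the start, 5′ to 3′ along the gene, as in RefSeq on build GRCm38.p6. Capitals mark a form of the sterol regulatory element (TCACNCCAC) and the NF-Y box (CCAAT), on either strand. ATTGG is CCAAT on the other strand, and boxes may touch or overlap. Other forms of the sterol regulatory element were not searched for and are not marked.

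Hmgcs1 (chr13:119690101-119690350, plus strand): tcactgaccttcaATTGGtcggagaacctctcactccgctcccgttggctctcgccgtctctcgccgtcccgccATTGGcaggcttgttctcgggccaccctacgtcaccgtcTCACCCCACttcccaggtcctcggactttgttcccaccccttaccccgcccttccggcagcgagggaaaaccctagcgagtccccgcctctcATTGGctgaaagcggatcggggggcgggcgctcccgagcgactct
Mvd (chr8:122443423-122443672, minus strand): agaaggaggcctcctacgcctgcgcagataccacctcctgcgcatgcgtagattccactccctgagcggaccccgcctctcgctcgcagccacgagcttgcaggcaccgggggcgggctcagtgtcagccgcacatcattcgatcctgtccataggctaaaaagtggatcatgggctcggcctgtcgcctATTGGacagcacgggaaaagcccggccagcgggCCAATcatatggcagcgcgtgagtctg
Cyp51 (chr5:4104698-4104947, minus strand): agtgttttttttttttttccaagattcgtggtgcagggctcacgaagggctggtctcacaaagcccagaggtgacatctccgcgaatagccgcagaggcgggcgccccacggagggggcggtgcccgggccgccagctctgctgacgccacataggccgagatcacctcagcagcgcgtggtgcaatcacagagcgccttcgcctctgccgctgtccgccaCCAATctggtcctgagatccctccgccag
Msmo1 (chr8:64733579-64733828, minus strand): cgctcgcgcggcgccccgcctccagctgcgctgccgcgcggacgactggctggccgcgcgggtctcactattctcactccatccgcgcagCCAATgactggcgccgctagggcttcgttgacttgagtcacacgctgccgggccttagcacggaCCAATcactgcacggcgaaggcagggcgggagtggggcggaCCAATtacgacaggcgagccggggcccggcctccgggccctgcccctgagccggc
Insig1 (chr5:28071162-28071411, plus strand): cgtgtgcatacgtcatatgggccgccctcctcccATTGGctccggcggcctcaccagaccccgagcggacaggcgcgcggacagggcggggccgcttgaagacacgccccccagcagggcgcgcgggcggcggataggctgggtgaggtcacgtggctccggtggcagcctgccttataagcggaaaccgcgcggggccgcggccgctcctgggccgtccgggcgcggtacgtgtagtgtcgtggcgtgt
Fasn (chr11:120824548-120824797, minus strand): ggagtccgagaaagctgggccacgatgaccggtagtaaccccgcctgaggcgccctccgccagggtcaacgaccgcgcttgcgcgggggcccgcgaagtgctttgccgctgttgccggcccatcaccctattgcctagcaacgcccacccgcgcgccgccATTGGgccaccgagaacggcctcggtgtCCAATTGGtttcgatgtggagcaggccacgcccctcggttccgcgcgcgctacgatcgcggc

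Windows of 300 bases (250 before and 50 after the start) were at hand for 24 members. None was at hand for Fdps, Fdft1, Sqle, Scd1, Scd2 and Stard4, all of which but Scd1 were called in a comparison below. TCACNCCAC stood in the window of 1 of the 24, Hmgcs1, where TCACCCCAC began 137 bases before the start, and in 1.44% of 27025 genes. CCAAT stood in the windows of 20 of the 24 members, against 41.1% of all genes and 42.9% of the 9955 genes with a window that were tested for expression. GGGCGG, the Sp1 box, stood in the windows of 20 of 24 members, against 67.4% of the tested genes, and CACGTG, the E-box that SREBP-1 can also bind, in 5 of 24, against 11.6%. A match describes letters in a window and is not a measured binding site.

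The depth was read back from the FPKM values (fragment counts divided by gene length and library size), whose low values step in whole reads, and came to between 4738359 and 14796528 reads on genes per library. The 30 members drew between 4 and 3076 reads each per library, with medians of 227, 138 and 150 reads in the 3 tables. All 9 endothelial marker genes, Pecam1 and Cdh5 among them, were above 0 in all 16 libraries. Markers of other cells were present too, and in mpECs and bmECs the 8 erythroid genes found summed to between 28263 and 60411 FPKM, against 1158 to 1480 FPKM for the 9 endothelial genes. In the Yap1/Taz libraries the 9 endothelial genes summed to between 541 and 733 FPKM. There the 8 erythroid genes summed to between 4455 and 6687, the 8 neutrophil genes to between 1673 and 3869 and the 7 macrophage genes to between 1155.5 and 1583 FPKM. The targeted genes did not follow all labels. Wwtr1 stood at 10.01, 9.88 and 10.3 FPKM in the Yap1/Taz controls and at 15.3, 19.6 and 19.5 FPKM in the libraries labelled ECKO, a rise of 0.78 ± 0.12 (SE) on the log2(FPKM + 1) scale (limma adjusted p = 0.0272), and Yap1 stood at 1.23 ± 0.34 and 1.15 ± 0.25 FPKM (SD, n = 3). Lats2 stood at 23.4 and 24.0 FPKM in its controls and at 19.2 in both cKO libraries (adjusted p = 0.125), and 56.5% of the 50-base stretches of its longest transcript also stand in the gene Gm49361. These are values over all exons of a gene, and reads on exons that Cre leaves in place count in them.

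Within each table, levels were compared per gene length. Acly, which splits cytosolic citrate to acetyl-CoA, stood highest of the 30 in each table, with means of 41.7, 57.2 and 58.7 FPKM over the mpEC and bmEC, the Yap1/Taz and the Lats2 libraries. Fdps, which makes farnesyl diphosphate, came second in the mpEC and bmEC table with 36.1 FPKM and in the Lats2 table with 29.0 FPKM. At the other end, Acaca (acetyl-CoA carboxylase) stood at 0.251 and 0.307 FPKM in these same tables but at 6.26 FPKM in the Yap1/Taz table, and 52.6% of the 50-base stretches of its longest transcript also stand in another gene, so these levels are uncertain. Values between tables are set side by side only, since each table was normalised on its own. The heat map of all 30 genes shows which libraries were high or low.

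**Figure D1:**
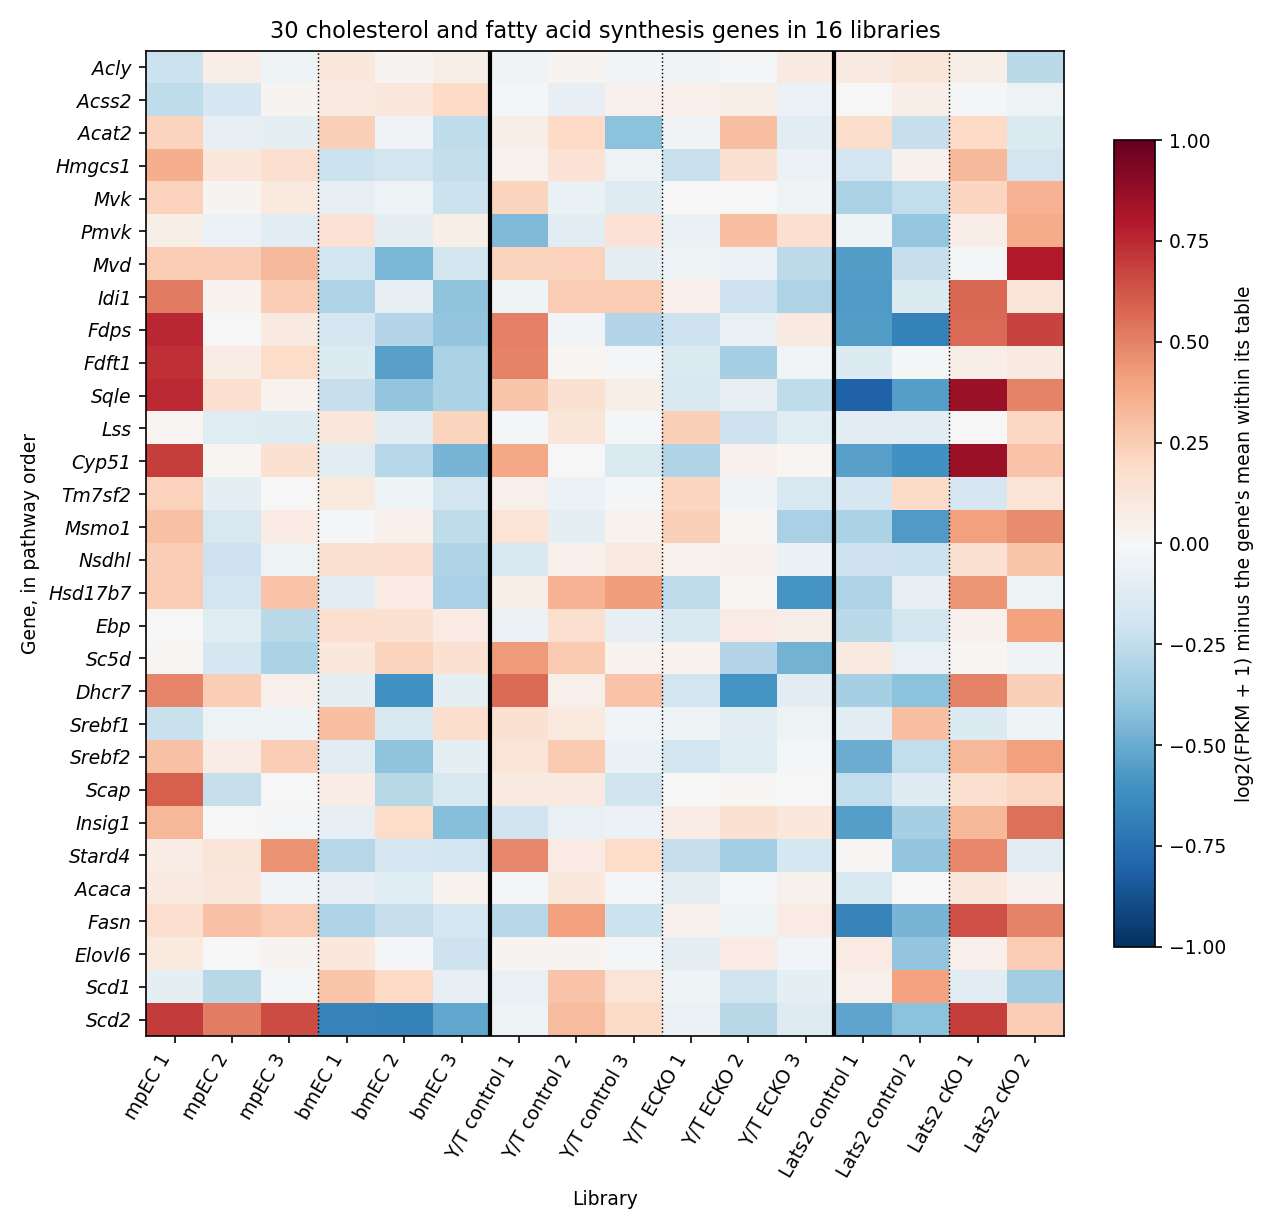
Each row is one of the 30 genes in pathway order and each column one library. Colour gives log2(FPKM + 1) minus the mean of the gene within its table, thick lines part the 3 tables and dotted lines part the groups. Scd2 is high in the 3 mpEC libraries and low in the 3 bmEC libraries, and Fdps, Sqle, Cyp51 and Fasn are low in the 2 Lats2 control libraries and high in the 2 cKO libraries.

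The first comparison asked how the pathway differs between the ECs of the metaphysis, where vessels grow, and those of the marrow. A run of sterol synthesis genes and Scd2 was lower in bmECs. Of the 30 members, 24 passed the filter of a mean of 1 FPKM, and 7 fell in bmECs at an adjusted p under 0.05 (limma, over 11422 genes), where 10.5% of all genes tested were lower. None of the 24 was called higher, where 13.0% of all genes were, and 13 had an unadjusted p under 0.05, where 36.1% of all genes had. The median difference of the 24 was -0.23 on the log2(FPKM + 1) scale, against -0.00068 over all genes, and 17 were negative and 7 positive. With no filter, which lets all 30 in, 4 were called lower and 0 higher, the median was -0.22, and 21 were negative and 9 positive. By step, 3 of 7 mevalonate and isoprenoid genes fell, 2 of 2 tested genes between farnesyl diphosphate and lanosterol, 0 of 7 tested between lanosterol and cholesterol, 1 of 4 tested regulators and carriers, and 1 of 3 tested fatty acid genes.

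Hmgcs1 makes HMG-CoA, the precursor of mevalonate, and its start region holds the match to TCACNCCAC shown above. It stood at 26.3, 21.8 and 22.7 FPKM in mpECs and at 17.3, 17.6 and 16.9 FPKM in bmECs. The bmEC mean was 0.731 times the mpEC mean, a log2 difference of -0.43 ± 0.09 (SE, adjusted p = 0.0134). Mvd, which makes isopentenyl diphosphate, stood at 7.40, 7.34 and 7.84 FPKM in mpECs and at 5.18, 4.14 and 5.21 FPKM in bmECs. Neither gene overlapped between the groups, and Mvd differed by -0.55 ± 0.11 (adjusted p = 0.00959). Idi1, which turns isopentenyl diphosphate into its isomer, stood at 13.6, 9.46 and 11.1 FPKM in mpECs and at 7.25, 8.69 and 6.74 FPKM in bmECs (adjusted p = 0.0348).

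Fdft1 and Sqle make and oxidise squalene, the first steps that lead to sterols alone. Fdft1 stood at 18.2, 11.2 and 12.2 FPKM in mpECs and at 9.56, 6.95 and 8.29 FPKM in bmECs, a log2 difference of -0.66 ± 0.19 (adjusted p = 0.0360). Sqle stood at 7.75, 4.83 and 4.33 FPKM against 3.44, 2.95 and 3.19 FPKM, a log2 difference of -0.63 ± 0.19 (adjusted p = 0.0451). In both genes replicate 1 of mpECs stood well above replicates 2 and 3, and the groups did not overlap. Fdps and Cyp51, the lanosterol demethylase, had the same shape with 59.2, 34.9 and 37.0 against 30.8, 28.2 and 26.2 FPKM for Fdps, but missed the threshold (adjusted p = 0.0654 and 0.0612).

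Later steps were mixed. For Ebp, the sterol isomerase, means were 29.4 ± 2.8 FPKM (mpECs) and 35.4 ± 1.1 FPKM (bmECs, SD, n = 3), and for Sc5d, the desaturase after it, 12.8 ± 1.6 and 16.2 ± 0.7 FPKM. Dhcr7, the last enzyme of one branch, stood at 4.53 ± 0.86 and 2.87 ± 0.74 FPKM. These 3 genes did not overlap between the groups and missed the threshold (adjusted p = 0.0746, 0.0627 and 0.0743). In all, 12 of the 24 members lay lower in each bmEC library than in each mpEC library and 2 lay higher, where 19.2% and 22.1% of all genes did.

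Among regulators, Srebf2, the factor that drives mainly sterol genes, stood at 2.77, 2.25 and 2.66 FPKM in mpECs and at 1.85, 1.34 and 1.89 FPKM in bmECs. Its log2 difference of -0.41 ± 0.14 missed the threshold (adjusted p = 0.0709) although the groups did not overlap. Srebf1, which drives mainly fatty acid genes, stood at 1.70, 2.03 and 2.05 FPKM against 2.87, 1.80 and 2.55 FPKM and overlapped. Scap lay under the filter, with 1.88, 0.616 and 0.890 FPKM against 1.00, 0.569 and 0.702 FPKM, and with no filter it was not called (adjusted p = 0.583). Insig1 overlapped as well, with 12.4, 9.66 and 9.51 FPKM against 9.06, 11.1 and 6.90 FPKM. Stard4, which moves cholesterol between membranes, fell from 17.0, 17.6 and 22.3 FPKM in mpECs to 13.1, 14.2 and 13.9 FPKM in bmECs (log2 difference -0.43 ± 0.12, adjusted p = 0.0314).

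Scd2 had the largest difference of the 24. It encodes one of the stearoyl-CoA desaturases, which put the first double bond into saturated fatty acids, and it stood at 6.60, 5.70 and 6.36 FPKM in mpECs and at 1.96, 1.94 and 2.27 FPKM in bmECs. The mpEC mean was 3.02 times the bmEC mean, a log2 difference of -1.24 ± 0.11 (adjusted p = 0.000223). Its neighbour and close copy Scd1 was not called, with 1.64, 1.33 and 1.79 FPKM in mpECs and 2.41, 2.23 and 1.67 FPKM in bmECs (log2 difference 0.26 ± 0.15, adjusted p = 0.244). Fasn, the fatty acid synthase, lay under the filter, with values of 0.5998, 0.743 and 0.701 FPKM in the mpEC libraries against 0.148, 0.215 and 0.259 FPKM, and with no filter it was called lower (adjusted p = 0.0138).

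**Figure D2:**
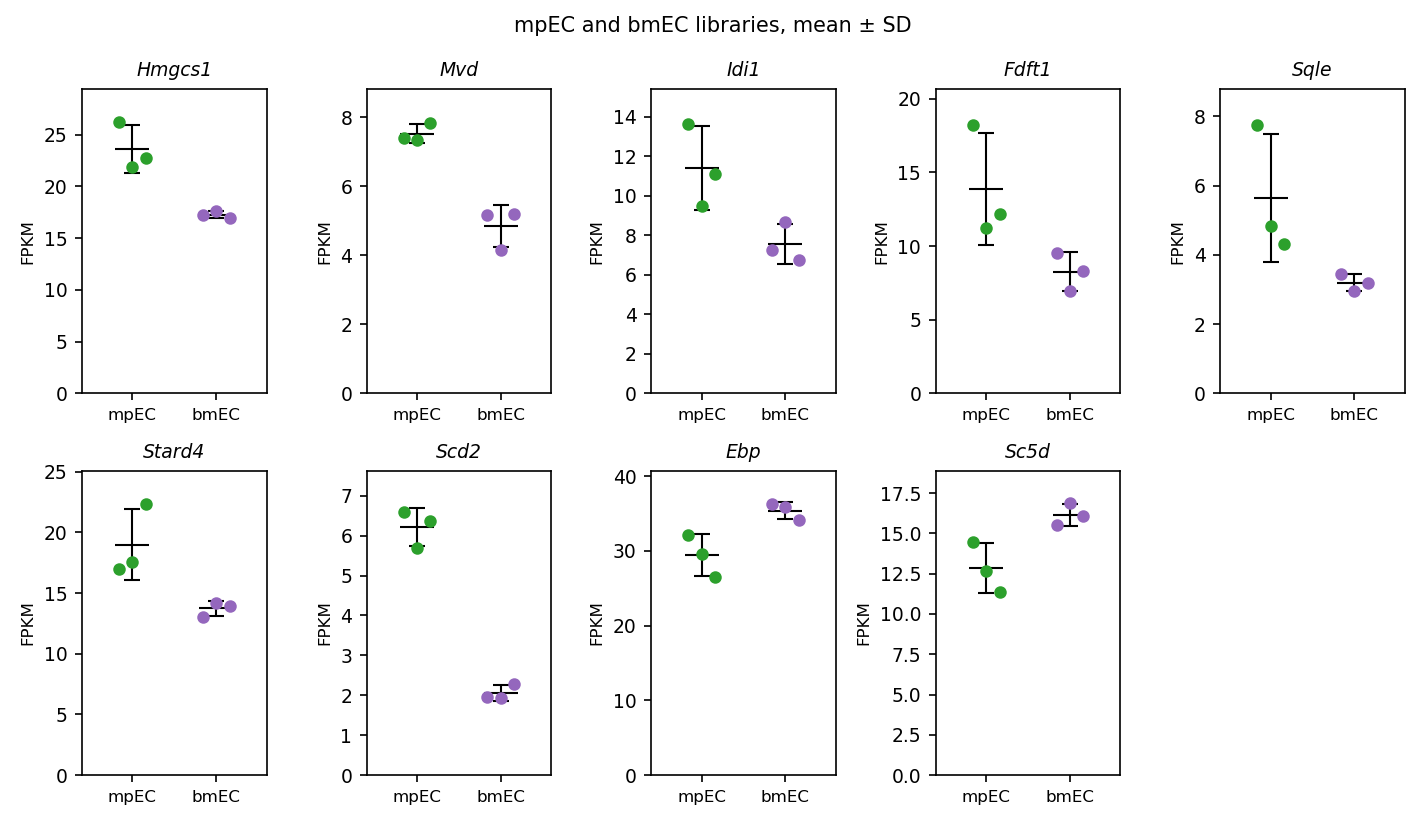
FPKM of the 7 members that fell in bmECs, and of Ebp and Sc5d, in the 3 mpEC and 3 bmEC libraries. Points are libraries, the horizontal mark is the mean and the bar ± 1 SD, and each axis starts at 0. No panel overlaps between the groups, and replicate 1 of mpECs stands apart in Fdft1 and Sqle.

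Related genes outside the 30 moved both ways. Of 7 other sterol and isoprenoid genes, Nus1, which takes part in making dolichol, fell by 0.58 on the log2 scale, and Ggps1, which makes geranylgeranyl diphosphate, rose (log2 difference 0.45 ± 0.08, adjusted p = 0.00577). Of 13 genes of the SREBP machinery and other sterol-regulated genes, 3 rose (Insig2, Lpin1 and Erlin2, by 0.43, 0.72 and 0.53 on the log2 scale) and 0 fell. The LXR and storage list holds genes tied to LXR, a nuclear receptor that answers to sterols, and genes of sterol export, storage or hydroxylation. Of its 8 tested genes 4 rose and 2 fell. Those that rose were Nr1h3, which encodes LXR alpha, by 1.37, Abca1, a cholesterol exporter, by 0.57, Apoe by 1.76 and Mylip, a ubiquitin ligase gene, by 1.91 on the log2 scale. Ch25h, the cholesterol 25-hydroxylase, fell by 1.93 and Soat1, which makes cholesterol esters, fell by 0.62.

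Other measures moved with this comparison, and their part in it was not tested. The 10 cell cycle genes, Mki67 and Top2a among them, all fell in bmECs, and their sum ranged from 232 to 329 FPKM in mpECs and from 132 to 158 FPKM in bmECs. Replicate 1 of mpECs held the highest mean of the 18 sterol enzymes and, of the 3 mpEC libraries, the highest sums of cell cycle (329 FPKM), osteoblast (926), erythroid (52898), neutrophil (27826), B lineage (381) and megakaryocyte genes (327) and the lowest of endothelial genes (1158 FPKM). The 8 osteoblast genes summed to between 235 and 926 FPKM in mpECs and between 44.7 and 59.8 FPKM in bmECs, and the 7 macrophage genes to between 135 and 180 against 349 and 427 FPKM, where Mrc1 alone rose (98.8 ± 14.6 to 331 ± 27.2 FPKM, SD, n = 3) and the other 6 were not called. The 8 neutrophil genes summed to between 11651 and 27826 FPKM in mpECs and between 9454 and 13904 FPKM in bmECs. All 8 neutrophil differences were negative, with 0 called. The 6 B lineage genes summed to between 190 and 381 against 157 and 211 FPKM, all 6 negative and 1 called. The 8 erythroid genes summed to between 28263 and 52898 against 42496 and 60411 FPKM, with 7 positive, 1 negative and 0 called. The 10 dissociation stress genes, Fos and Jun among them, summed to 799, 819 and 1173 FPKM in mpECs. In bmECs they summed to 2617, 3058 and 969 FPKM, with 2 called higher and 0 lower. The 8 adipocyte and marrow stroma genes summed to between 72.8 and 86.2 against 96.9 and 134 FPKM, with 3 called higher and 1 lower. In bulk libraries such as these, fewer cells of a kind and less RNA per cell cannot be told apart.

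The count rested in part on single libraries. Without replicate 1 of mpECs, 4 members were called lower and 2 higher, the latter Ebp (log2 difference 0.33, adjusted p = 0.0421) and Sc5d (0.40, adjusted p = 0.0283). Without replicate 2 of mpECs 8 were called lower, without replicate 3 of mpECs or replicate 1 or 2 of bmECs 4, and without replicate 3 of bmECs 3. Scd2, Hmgcs1 and Mvd were called lower in all 6 of these fits, Idi1, Fdft1 and Stard4 in 2 and Sqle in 1.

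The second comparison asked what differs between controls and the bone EC libraries labelled ECKO, from mice with loxP-flanked Yap1 and Wwtr1. No member was called at an adjusted p under 0.05. All 30 passed the filter, 0 were called in limma, where 1.31% of all 11320 genes tested were called, 0.883% higher and 0.424% lower, and 7 had an unadjusted p under 0.05, where 17.9% of all genes had. Limma-voom on reads recovered from the values also called 0. The median difference of the 30 was -0.08 on the log2(FPKM + 1) scale, against -0.0047 over all genes, with 21 negative and 9 positive. Without overlap between the groups, 7 lay lower in the libraries labelled ECKO and 1 higher, where 11.3% and 12.3% of all genes did.

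Dhcr7 and Hsd17b7, both between lanosterol and cholesterol, differed most on the log2(FPKM + 1) scale. Dhcr7 stood at 3.28, 2.00 and 2.52 FPKM in controls and at 1.53, 0.904 and 1.67 FPKM in the libraries labelled ECKO (log2 difference -0.60 ± 0.19, adjusted p = 0.141). Hsd17b7 stood at 1.40, 1.91 and 2.06 against 0.923, 1.31 and 0.517 FPKM (log2 difference -0.56 ± 0.20, adjusted p = 0.181). Stard4 had the lowest adjusted p of the 30 at 0.114, with 5.17, 3.67 and 4.02 FPKM against 2.76, 2.48 and 2.90 FPKM. These 3 genes were singled out after their values were seen, and their groups did not overlap.

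Scd2 and Sqle, which fell in bmECs, lay lower here without passing the test. Scd2 stood at 28.9, 37.5 and 34.2 FPKM in controls and at 28.7, 24.4 and 27.2 FPKM in the libraries labelled ECKO (adjusted p = 0.205). Sqle stood at 4.56, 4.11 and 3.79 FPKM against 3.13, 3.33 and 2.86 FPKM (adjusted p = 0.219). In Scd2 the highest ECKO library stood just under the lowest control, whereas the Sqle groups lay further apart. Hmgcs1 overlapped fully, with 7.75, 8.40 and 7.25 FPKM against 6.29, 8.46 and 7.19 FPKM.

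The regulators were among the better expressed members in this table. Srebf2 stood at 14.5, 15.9 and 12.5 FPKM in controls and at 11.46, 12.03 and 12.95 FPKM in the libraries labelled ECKO, and Srebf1 at 22.8, 22.0 and 20.04 against 19.8, 18.8 and 19.7 FPKM (adjusted p = 0.355 and 0.463). Srebf1 did not overlap, by a margin smaller than the range within either group. Scap stood at 24.9, 25.0 and 20.3 against 23.4, 23.6 and 23.5 FPKM. Insig1 was the 1 member that lay higher in each library labelled ECKO, with 19.4, 21.2 and 21.4 FPKM in controls and 23.7, 25.1 and 24.1 FPKM (log2 difference 0.22 ± 0.09, adjusted p = 0.242). Fasn and Scd1 overlapped, Fasn with 17.0, 28.3 and 17.98 against 21.7, 20.4 and 22.3 FPKM, and Scd1 with 14.6, 19.1 and 17.0 against 15.0, 13.3 and 14.4 FPKM.

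Of the 48 related genes only Thrsp, a regulator of fatty acid synthesis, was called, with a rise of 0.59 ± 0.11 on the log2 scale (adjusted p = 0.0423). The 10 cell cycle genes summed to between 311 and 335 FPKM in controls and between 277 and 288 FPKM in the libraries labelled ECKO, with 0 of 10 called. Other markers differed too, and their part in these values was not tested. The 9 endothelial genes summed to between 541 and 551 FPKM in controls and between 630 and 733 FPKM in the libraries labelled ECKO (0 called), the 6 B lineage genes to between 223 and 256 against 179 and 185 FPKM (0 called), and of the osteoblast genes Bglap, Bglap2 and Col1a1 fell. The 7 macrophage genes summed to between 1155.5 and 1583 against 1173 and 1283 FPKM (0 called). Of the 8 erythroid and the 8 neutrophil genes 0 were called. Wwtr1 rose and Yap1 was not called, so these 2 levels do not show a loss of either gene in the libraries labelled ECKO. Reads on exons that Cre leaves in place count in these levels.

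The third comparison asked what differs between controls and the libraries labelled Lats2 cKO, and here sterol and fatty acid genes rose. Lats2 itself lay lower in both cKO libraries without being called, as given above. Of the 30 members, 26 passed the filter and 9 were called higher in the cKO libraries (limma, over 12451 genes), where 11.8% of all genes were. None of the 26 was called lower, where 9.98% of all genes were, and 15 had an unadjusted p under 0.05, where 38.6% of all genes had. The median difference of the 26 was 0.44 on the log2(FPKM + 1) scale, against -0.0031 over all genes, with 22 positive and 4 negative. With no filter, which lets all 30 in, 5 were called higher and 0 lower, the median was 0.41, and 24 were positive and 6 negative. By step, 1 of 7 mevalonate and isoprenoid genes rose, 1 of 2 tested between farnesyl diphosphate and lanosterol, 3 of 7 tested between lanosterol and cholesterol, 2 of 5 regulators and carriers, 2 of 3 tested fatty acid genes and 0 of 2 that supply acetyl-CoA. With 2 libraries a group, 18 members lay higher in both cKO libraries and 2 lower, where 34.0% and 34.2% of all genes did.

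In the sterol steps, Sqle, a rate-limiting enzyme of the late pathway, rose most. It stood at 2.83 and 3.58 FPKM in controls and at 11.2 and 8.44 FPKM in cKO libraries, 3.06 times the control mean (log2 difference 1.36 ± 0.20, adjusted p = 0.0143). Fdps stood at 17.7 and 16.1 FPKM against 39.5 and 42.7 FPKM, 2.43 times the control mean (log2 difference 1.24 ± 0.12, adjusted p = 0.00911). In both genes the 2 cKO libraries lay far above the controls.

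Between lanosterol and cholesterol, Cyp51 stood at 3.28 and 3.10 FPKM in controls and at 10.3 and 6.61 FPKM in cKO libraries (log2 difference 1.15 ± 0.23, adjusted p = 0.0264). Msmo1, which takes part in removing the methyl groups at carbon 4, stood at 4.97 and 4.02 against 8.88 and 9.32 FPKM (adjusted p = 0.0209). Dhcr7 stood at 5.21 and 4.89 against 10.01 and 8.23 FPKM (adjusted p = 0.0305). The 3 genes act at different points of this stretch. Between them, Nsdhl, Hsd17b7 and Ebp lay higher in both cKO libraries without being called (adjusted p = 0.0867, 0.334 and 0.105), and Sc5d stood at 6.80 ± 0.64 and 6.69 ± 0.19 FPKM (SD, n = 2).

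Differences in the early steps were less even. Hmgcs1 stood at 17.9 and 21.2 FPKM in controls and at 26.0 and 18.02 FPKM in cKO libraries, so that the groups overlapped (log2 difference 0.14 ± 0.21, adjusted p = 0.642). Acat2 and Fdft1 were near their controls, with log2 differences of 0.06 ± 0.21 and 0.16 ± 0.12. Mvk, Mvd, Idi1 and Pmvk, the 4 enzymes between mevalonate and the isoprenoids, lay higher in both cKO libraries and missed the threshold (adjusted p = 0.0504, 0.114, 0.0915 and 0.152). For Mvd the 2 cKO libraries lay far apart, at 12.6 and 22.8 FPKM against 8.33 and 10.7 FPKM in controls.

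Among regulators, Srebf2 and Insig1 rose. Srebf2 stood at 10.2 and 12.3 FPKM in controls and at 18.9 and 19.9 FPKM in cKO libraries (log2 difference 0.74 ± 0.14, adjusted p = 0.0243). Insig1 stood at 9.09 and 10.7 against 17.6 and 20.6 FPKM (log2 difference 0.88 ± 0.15, adjusted p = 0.0196). In both genes the gap between the groups was larger than the range within either. Insig2, the other Insig gene and outside the 30, lay lower, at 12.7 and 15.1 against 8.47 and 10.3 FPKM (log2 difference -0.52 ± 0.16, adjusted p = 0.0731). Scap stood at 9.19 and 10.1 against 12.5 and 13.0 FPKM (adjusted p = 0.0964). Srebf1 did not follow Srebf2, with 15.1 and 20.5 against 14.9 and 15.9 FPKM (log2 difference -0.18 ± 0.18, adjusted p = 0.482).

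In fatty acid synthesis, Fasn stood at 1.88 and 2.304 FPKM in controls and at 6.13 and 5.45 FPKM in cKO libraries, 2.77 times the control mean (log2 difference 1.14 ± 0.18, adjusted p = 0.0160). Scd2 stood at 11.7 and 12.8 against 28.6 and 20.7 FPKM (log2 difference 0.94 ± 0.18, adjusted p = 0.0254). Its close copy Scd1 lay under the filter and went the other way, at 1.04 and 1.60 FPKM in controls and 0.822 and 0.540 FPKM in cKO libraries. Acly, which feeds both pathways, stood at 62.9 ± 0.8 and 54.5 ± 8.7 FPKM (SD, n = 2) and was not called (adjusted p = 0.338).

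**Figure D3:**
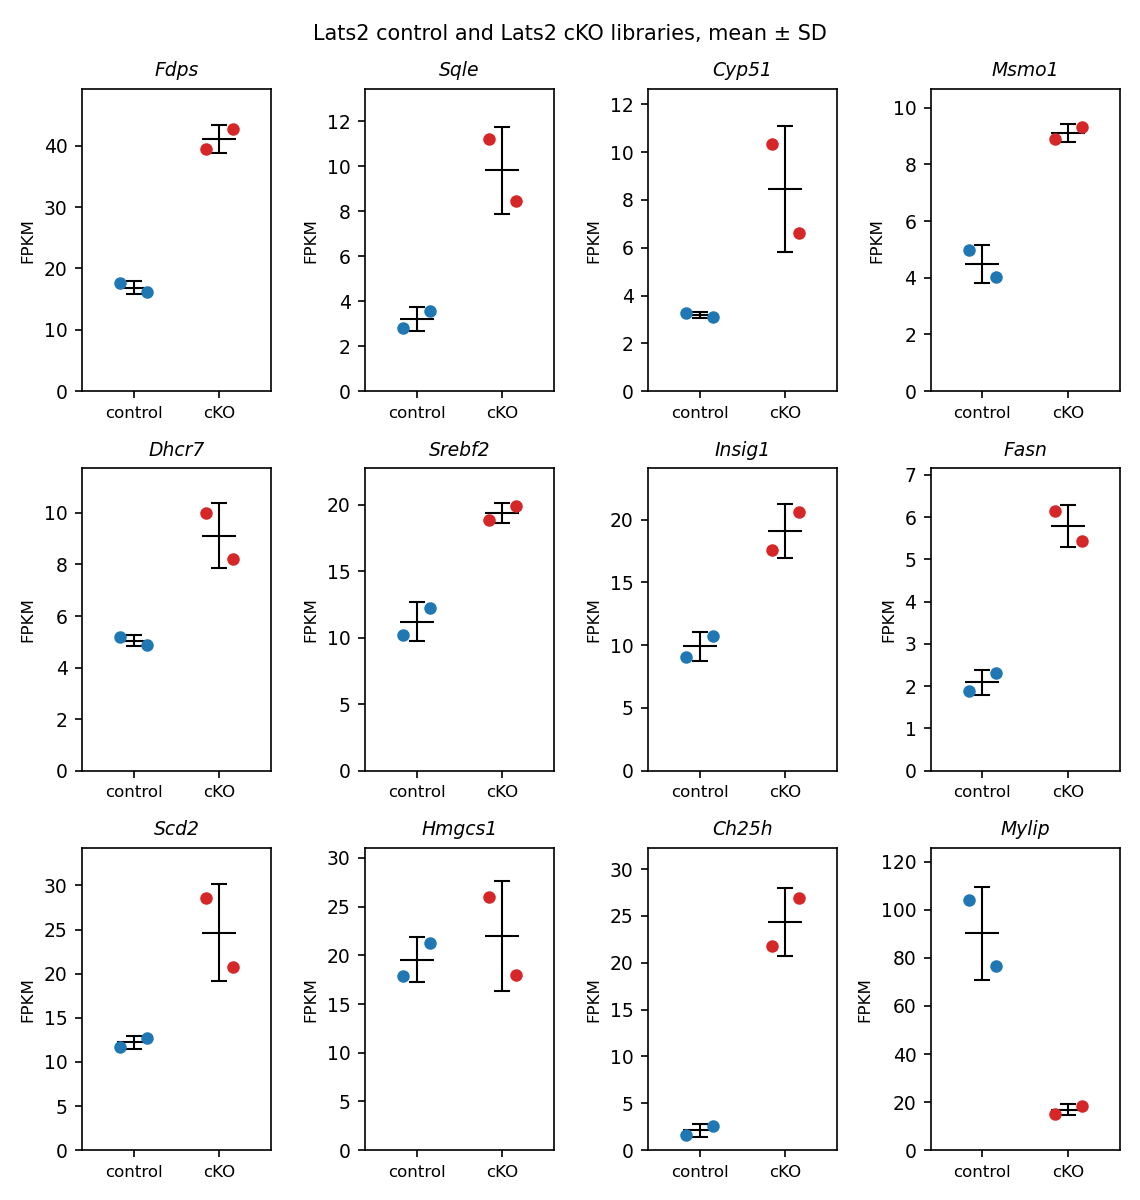
FPKM of the 9 members that rose in Lats2 cKO libraries, of Hmgcs1, and of Ch25h and Mylip outside the 30, in 2 control and 2 cKO libraries. Points are libraries, the horizontal mark is the mean and the bar ± 1 SD, and each axis starts at 0. The groups lie apart in the 9 members, and overlap in Hmgcs1.

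Some related genes outside the 30 rose as well. Of the 7 companion genes of sterol and isoprenoid synthesis, Nus1 and Erg28 rose, by 1.32 and 0.71 on the log2 scale, and 0 fell. Nus1 stood at 9.65 and 9.52 FPKM in controls and at 20.6 and 31.1 FPKM in cKO libraries. Of 12 tested genes of the SREBP machinery and other sterol-regulated genes, Tmem97 rose by 1.42 on the log2 scale, and Erlin2 and Rnf139, both tied to the breakdown of sterol sensors, fell by 0.70 and 0.62.

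The LXR and storage list again split, in the opposite direction to bmECs for 3 genes named there. Ch25h stood at 1.64 and 2.61 FPKM in controls and at 21.8 and 26.9 FPKM in cKO libraries (log2 difference 3.03 ± 0.21, adjusted p = 0.00679). Mylip stood at 104 and 76.6 against 15.1 and 18.6 FPKM (log2 difference -2.34 ± 0.19, adjusted p = 0.00735). Apoe fell by 2.20 on the log2 scale (adjusted p = 0.00655), while Abca1 rose by 0.62 (adjusted p = 0.0440) as it had in bmECs.

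Values of other cell types moved with this comparison, and their part in it was not tested. The 8 erythroid genes found summed to 2443 and 3675 FPKM in controls and to 243 and 1396 FPKM in cKO libraries, and the 8 neutrophil genes to 1923 and 2878 against 703 and 846 FPKM, with Elane, Mpo and Prtn3 at 0 in replicate 2 of the cKO. The 6 B lineage genes summed to between 91.1 and 110 FPKM in controls and between 25.1 and 34.3 FPKM in cKO libraries, and 5 of the 6 fell. The 7 macrophage genes summed to 150 and 172 against 31.6 and 72.0 FPKM (0 called higher, 1 lower). The 6 megakaryocyte genes summed to 29.7 and 112 against 9.45 and 12.4 FPKM (0 higher, 1 lower). The 8 adipocyte and marrow stroma genes summed to 85.6 and 91.8 against 109 and 111 FPKM (2 higher, 1 lower). The 9 endothelial genes summed to 2068 and 2240 FPKM in controls and to 2161 and 2169 FPKM in cKO libraries, with 1 called higher and 2 lower. Of the 10 cell cycle genes 4 rose, and their sum ranged from 92.1 to 96.2 FPKM in controls and from 123 to 163 FPKM in cKO libraries.

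With 2 libraries a group, the calls needed both controls. Without control replicate 1, and likewise without control replicate 2, limma called 0 members and 0 of all genes, with 9 and 10 members and 2724 and 2878 genes at an unadjusted p under 0.05. In such a fit the lone library is taken to vary like the pair it is set against. Without cKO replicate 2 it called 4 members (Fdps, Sqle, Cyp51 and Scd2) and without cKO replicate 1 it called 8, of which Ebp and Mvd are not among the 9. Fdps, Sqle, Cyp51 and Scd2 were called in 2 of the 4 fits, Insig1 and Fasn in 1, and Msmo1, Dhcr7 and Srebf2 in 0. The 9 called members were positive in all 4 of these fits.

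**Figure D4:**
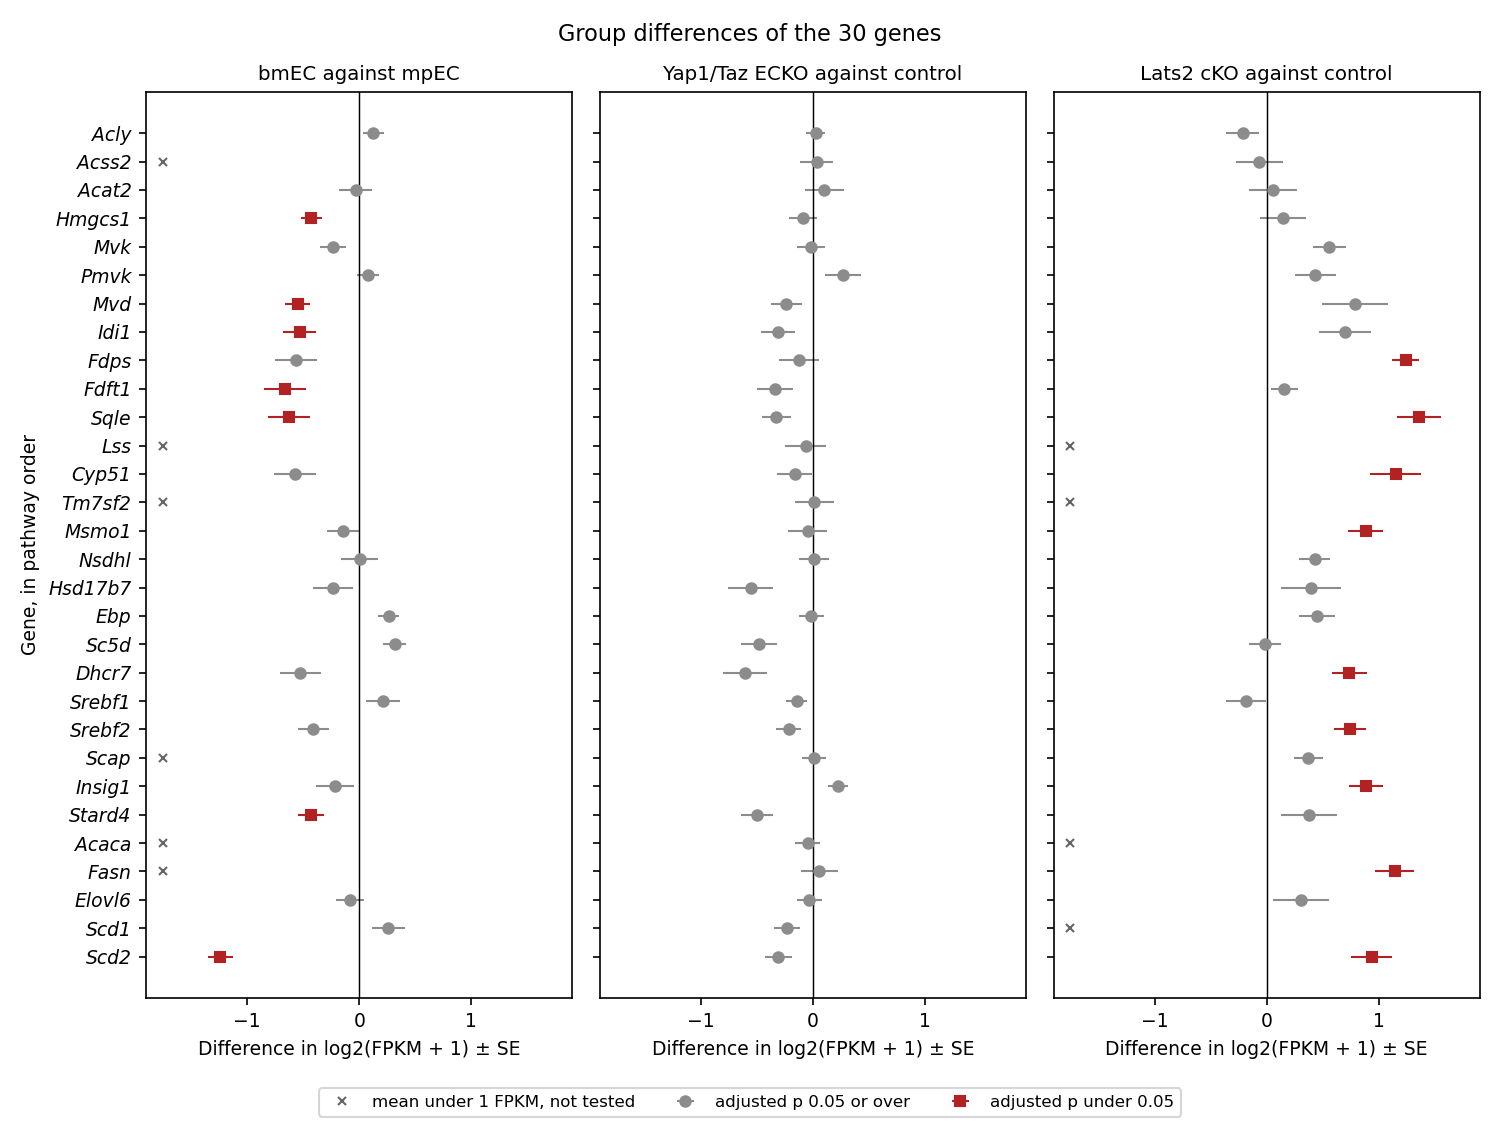
Difference of each of the 30 genes in the 3 comparisons, in log2(FPKM + 1) with its SE, from limma. Red squares passed an adjusted p under 0.05, grey circles did not, and crosses mark genes with a mean under 1 FPKM. The red squares lie left of 0 for bmECs against mpECs, right of 0 for Lats2 cKO against control, and are missing in the Yap1/Taz comparison.

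The bmEC and the Lats2 comparisons share no libraries. Of the 23 members tested in both, 17 lay lower in bmECs and higher in Lats2 cKO libraries, where 30.7% of the 10471 genes tested in both did. Sqle and Scd2 were called in both. In bmECs the Sqle call held in 3 of the 6 alternatives set beforehand that tested it, and the Scd2 call in 6 of 6. With 1 library left out these calls held in 1 of 6 and 6 of 6 fits. In Lats2 the alternatives set beforehand kept the Sqle call in 7 of 7 and the Scd2 call in 6 of 7. Across the 23 members the 2 log2 differences had a Pearson correlation of -0.63, against -0.42 across the 10471 genes. Genes within a comparison share their libraries and are not independent replicates, so these values are a description.

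Across libraries, the mean of the 18 sterol enzymes stood beside the sum of the 10 cell cycle genes in the same order of groups in each table. This relation was not tested, and sums of other marker lists differed between groups too. The mean log2(FPKM + 1) was 3.44, 3.09 and 3.14 in mpECs and 3.07, 2.96 and 2.91 in bmECs. It was 2.60, 2.54 and 2.46 in the Yap1/Taz controls and 2.40, 2.40 and 2.31 in the libraries labelled ECKO. It was 2.67 and 2.71 in the Lats2 controls and 3.24 and 3.21 in the cKO libraries.

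**Figure D5:**
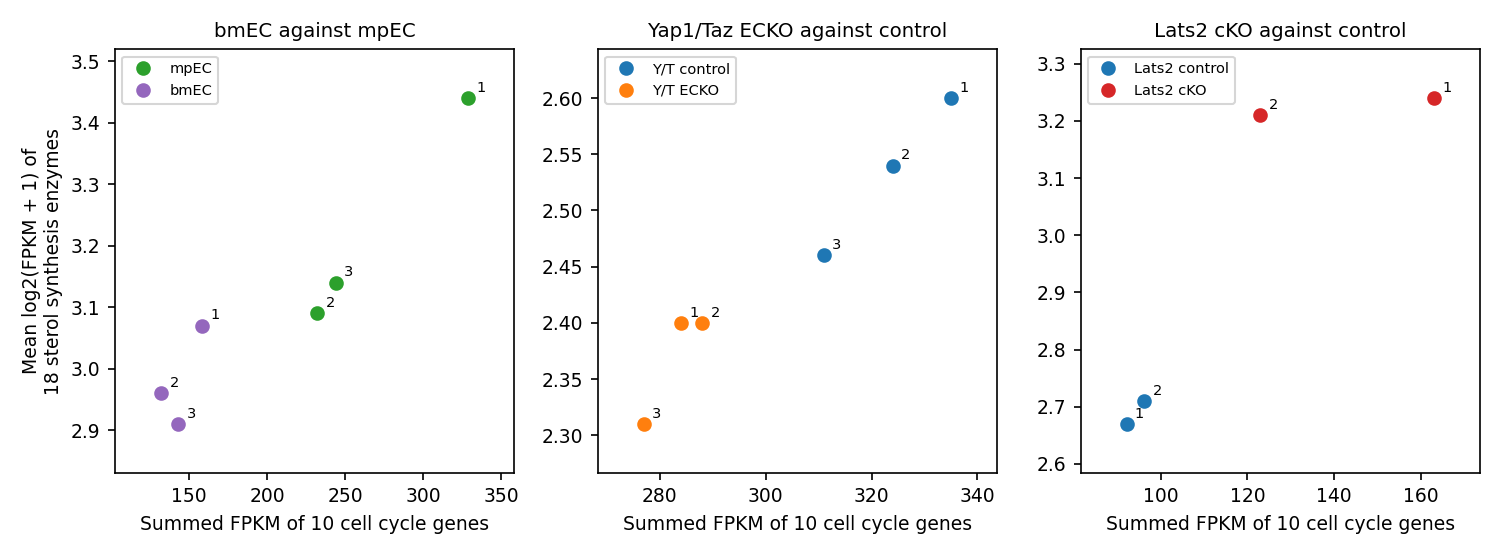
Mean log2(FPKM + 1) of the 18 sterol synthesis enzymes against the summed FPKM of 10 cell cycle genes, 1 point per library with its replicate number, in 3 panels with their own axes. In each panel the group with the higher cell cycle sums also has the higher enzyme means, with 232 to 329 FPKM in mpECs against 132 to 158 FPKM in bmECs. The relation was not tested.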

How the data were processed

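The authors sequenced stranded total RNA libraries on a MiSeq, mapped reads to GRCm38 with TopHat and counted them per gene with HTSeq 0.6.1, per the methods and the submitters' processing notes. The deposited values are FPKM. The step from counts to FPKM and the strand setting of the counting are not given in the sources used here, and for the Yap1/Taz files, which name no unit, FPKM was inferred from low values that step in whole reads per gene length. Low values came out whole (within 0.02 reads) for 62.7% to 70.2% of them.

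From these, log2(FPKM + 1) was tested with limma 3.58.1 (R 4.3.3, empirical Bayes with a mean-variance trend, two-sided) within each table, in genes whose mean reached 1 FPKM, with Benjamini-Hochberg adjustment over all genes tested. A call is an adjusted p under 0.05. P-values measure the spread between these libraries, which may be partly technical. The procedure was tested on simulated data. Gene positions came from GENCODE release M21 and promoters from RefSeq. The members and lists were chosen with earlier results of these data known. Values in every library are given for called members and 9 fixed members, and companions are named when called beyond 0.5 on the log2 scale. Other genes were named after their values were seen. Some related genes are not reported here. Alternatives were another pseudocount, filter, normalisation, trend or library set, and, added after seeing the data, limma-voom on recovered reads and removal of a GC content and length trend.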

Additional observations from a re-analysis of the deposited data

How the results depend on the processing

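Members called in bmECs against mpECs numbered 7 in the report, 4 with no filter on low values, 11 with limma-voom on recovered reads under either scaling, 9 with replicate numbers as a block, and 3 to 8 when 1 library was left out. Those called in Lats2 cKO numbered 9, then 5 with no filter and 0 to 8 when 1 library was left out, and the block gave 10. In the Yap1/Taz comparison 0 members were called under each alternative, while the 148 genes called in all became 1 with no filter, 17 with no trend, 45 with the replicate block, 387 and 361 with limma-voom at the scale implied by the values and at library totals, and 1 to 293 without 1 library. All genes called for Lats2 numbered 2711, 1389 with no filter and 0 to 2701 without 1 library. Within limma-voom, scaling to library totals put the median of all genes at -0.19 in bmECs and -0.14 in Lats2 cKO and moved the split from 1475 higher and 1181 lower to 895 and 2398 in bmECs, from 271 and 116 to 207 and 154 in the Yap1/Taz comparison and from 1635 and 1540 to 1278 and 2050 in Lats2, beside 1481 and 1201, 100 and 48, and 1468 and 1243 in the report. The number of positive members ranged over the alternatives from 4 to 9 in bmECs, 5 to 10 in the Yap1/Taz comparison and 19 to 24 in Lats2. The number tested changed as well, from 15 to 30, 19 to 30 and 22 to 30, lowest with the filter at a mean of 5 FPKM. In Lats2 the 19 was of 22 tested under that filter. The 24 was of 26 with the GC and length trend removed and of 30 with no filter. Among called and fixed members, the signs that turned were those of, in the Yap1/Taz comparison, Hmgcs1 (0.0023 without ECKO replicate 1), Scap (-0.0038 with quantile normalisation, -0.035 at library totals, -0.0061 with the GC and length trend removed, -0.084 without control replicate 3 and up to 0.060 without 1 library) and Fasn (-0.070 and -0.033 without control replicates 1 and 3, up to 0.28 without 1 library), and in Lats2 Hmgcs1 (-0.0039 at library totals, -0.11 to 0.40 without 1 library, lowest without cKO replicate 1) and Srebf1 (-0.39 and 0.025 without control replicates 1 and 2). The causes were not tested. Whether same-numbered libraries share an animal, a litter or a batch is not given in the sources used here. The main fits treated libraries as unpaired. Deviations of same-numbered libraries correlated at 0.307, 0.0876 and 0.102 in mpECs and bmECs. Those of differently numbered libraries ranged there from -0.206 to 0.115, and mpEC replicate 2 correlated best with bmEC replicate 3. Same-numbered values were -0.175, -0.123 and -0.155 in the Yap1/Taz set and 0.0651 in the Lats2 set.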

Other observations

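In bmECs, fatty acid genes outside the 30 moved both ways. Of 15 tested companions of fatty acid synthesis, elongation and desaturation, 5 rose and 2 fell, where 13.0% of all genes were higher and 10.5% lower, and the risers included Thrsp (by 2.06 on the log2 scale), the elongase Elovl5 (by 0.57) and the desaturase Fads2 (by 0.60), while Fads3 and Mid1ip1 fell by 0.59 and 0.66. In Lats2 cKO libraries 2 of 17 rose and 3 fell, where 11.8% of all genes were higher and 9.98% lower. Of genes of the elongation cycle, Hsd17b12 and Tecr rose by 0.80 and 0.51 and Hacd3 fell by 0.61, and Thrsp and Acacb fell by 2.20 and 1.03.

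Levels of members differed between tables, and for 2 of the 3 pairs of tables these differences went with base composition. Fasn stood at 0.444 FPKM over the mpEC and bmEC libraries, 21.3 over the Yap1/Taz libraries and 3.94 over the Lats2 libraries, and Scap at 0.944, 23.4 and 11.2 FPKM. Across 27 members the Lats2 minus mpEC and bmEC difference in mean log2(FPKM + 1) correlated with the GC content of the longest transcript at r = 0.687, against 0.336 across 12581 genes, a description over genes that share their libraries. For the Yap1/Taz minus the mpEC and bmEC libraries r was 0.50 over 30 members and 0.247 over 11261 genes, and for the Yap1/Taz minus the Lats2 libraries r was 0.116 and -0.0741 (11488 genes). Within the 3 comparisons the log2 differences of all genes correlated with GC content at -0.037, -0.0512 and 0.0371. Marker sums differed between the tables as well. In the order mpEC and bmEC, Yap1/Taz and Lats2, the 7 macrophage genes summed to 135 to 427, 1155.5 to 1583 and 31.6 to 172 FPKM. The 9 endothelial genes summed to 1158 to 1480, 541 to 733 and 2068 to 2240 FPKM. What part base composition or cell types had in the levels was not tested.

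Some members share sequence with other genes, and their values are uncertain to that extent. Of the 50-base stretches of the longest transcript, 52.6% of those of Acaca, 45.9% of Acat2, 30.7% of Fdft1, 30.5% of Idi1, 13.6% of Hmgcs1, 11.7% of Fdps and 4.01% of Scd2 also stood in transcripts of other genes on either strand, and for Scd2 these were 5 genes, its copies Scd1, Scd3 and Scd4 among them. On the same strand, 26.7% of the exon bases of Fdps overlapped another gene.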
